A study of Mus musculus with 6 samples.

Results

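Cytochrome P450 enzymes of families 1 to 3 are the haem-containing monooxygenases that oxidise drugs, plant compounds, steroids and fatty acids in the endoplasmic reticulum of hepatocytes. The members described here are the Affymetrix probe sets held by both array tables of the study that the platform annotation assigns to exactly 1 gene symbol of these families, meaning Cyp1, Cyp2 or Cyp3 followed directly by a letter. The rule gave 46 probe sets for 39 genes, out of 12394 genes with such probe sets on the arrays. The livers came from C57BL/6J mice, an inbred strain, on either a control or a high-fat diet (HF in the sample labels, HFC in the design text), taken at weeks 2, 4 and 10. There were 6 arrays, 1 for each diet and week, so that no diet had a replicate within a week. RNA was isolated mouse by mouse, but the number of mice behind each array is not stated, nor are diet composition, sex, age or time of day.

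Transcription of many of these genes responds to ligand-activated receptors. CAR (Nr1i3) and PXR (Nr1i2) act on subfamilies 2b, 2c and 3a, and the aryl hydrocarbon receptor (Ahr) acts on subfamilies 1a and 1b, while hepatocyte factors such as HNF4A maintain their basal level. Electrons reach the enzymes from NADPH through P450 reductase and cytochrome b5. Many of the genes lie in clusters of close paralogues, so a probe set of one member can also bind the transcript of a neighbour. Such cross-hybridisation was not tested here.

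The arrays differed in ways that touch the results below. Signals are linear intensities, scaled here to a common median over shared probe sets, and values under a floor of 155.3 (the 40th percentile of all shared values) were set to the floor, so that a difference with 1 side there is a bound, written "at least". The week 4 arrays are of a larger design and come from a separate table, and their levels are not set against those of weeks 2 and 10. Between 50.4% and 65.8% of shared probe sets were above the floor on an array. The 3'/5' signal ratio of pyruvate carboxylase, a sign of RNA integrity, on control against high-fat arrays was 3.82 against 9.64 (week 2), 4.26 against 7.78 (week 4) and 4.01 against 2.39 (week 10). The spiked-in control bioD, in the deposited values before this scaling, read 19736 on the week 10 control array and 4271 to 7858 on the others. In those values the week 2 control array had a higher scale (trimmed mean 800.3) than the others (500.0 to 500.2). Of the 8 hepatocyte markers tested, such as albumin (Alb) and transthyretin (Ttr), all were above the floor on all 6 arrays, and 7 of them had lower high-fat values every week.

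Promoter sequences are shown for 2 pairs of genes from the same cluster: Cyp2b10 and Cyp2b9 on chromosome 7, which lay on opposite sides between the diets at weeks 2 and 10, and Cyp3a11 and Cyp3a44 on chromosome 5, which did so at weeks 4 and 10. Each is the 250 bases before the RefSeq start of the gene in GRCm38.p6, written 5' to 3' on the gene's own strand, with matches to searched motifs in capitals. The windows are chr7:25897408-25897657 on the plus strand for Cyp2b10, chr7:26173159-26173408 on the plus strand for Cyp2b9, chr5:145879855-145880104 on the minus strand for Cyp3a11 and chr5:145805875-145806124 on the minus strand for Cyp3a44.
Cyp2b10: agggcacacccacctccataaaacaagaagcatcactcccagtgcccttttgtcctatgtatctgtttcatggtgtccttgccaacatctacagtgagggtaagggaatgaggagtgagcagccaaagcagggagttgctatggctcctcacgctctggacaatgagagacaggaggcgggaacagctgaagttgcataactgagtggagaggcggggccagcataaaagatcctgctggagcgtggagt
Cyp2b9: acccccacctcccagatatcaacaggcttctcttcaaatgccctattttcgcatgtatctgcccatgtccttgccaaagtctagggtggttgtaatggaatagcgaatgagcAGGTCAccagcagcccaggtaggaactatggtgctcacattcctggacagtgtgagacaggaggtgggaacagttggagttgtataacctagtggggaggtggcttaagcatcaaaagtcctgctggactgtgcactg
Cyp3a11: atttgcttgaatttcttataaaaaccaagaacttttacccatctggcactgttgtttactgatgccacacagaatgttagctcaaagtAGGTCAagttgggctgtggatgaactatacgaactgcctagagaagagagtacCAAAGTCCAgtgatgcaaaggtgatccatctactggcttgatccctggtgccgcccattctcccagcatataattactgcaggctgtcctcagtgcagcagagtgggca
Cyp3a44: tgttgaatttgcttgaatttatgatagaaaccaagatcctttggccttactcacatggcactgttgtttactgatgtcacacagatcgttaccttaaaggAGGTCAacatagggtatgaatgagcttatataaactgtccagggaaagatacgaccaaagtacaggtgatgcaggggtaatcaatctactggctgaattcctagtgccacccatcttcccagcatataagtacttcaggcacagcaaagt
The capitals mark the nuclear receptor hexamer AGGTCA in Cyp2b9, Cyp3a11 and Cyp3a44, with first bases at -138, -162 and -150 counted from the start, and the HNF4-type site CAAAGTCCA in Cyp3a11, with its first base at -109. The Cyp2b10 window held none of the searched motifs, and looser or more distant sites were not searched for any gene.

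These motifs were searched on both strands in the same window of all 27025 genes of the RefSeq promoter table, of which 32 were P450 members, and 7 further members were not matched in it. CAAAGTCCA was present in 5 of the 32 (Cyp2c65, Cyp2c68, Cyp2c70, Cyp3a11 and Cyp3a16), or 15.6%, against 0.451% of all genes. The hexamer AGGTCA was present in 11, or 34.4%, against 15.8%. The E-box CACGTG was present in 1 member, Cyp2j6, or 3.12%, against 6.86% of all genes. No member window held the D-box (TTATGTAA or TTACGTAA, 1.10% of all genes), the AhR core TTGCGTG (1.08%) or the C/EBP site TTGCGCAA (0.185%). Related genes of 1 cluster share promoter sequence and are not independent. A match is a description of letters and not of binding.

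Most P450 genes were measured above the floor, and none passed the test between the diets. Of the 46 probe sets, 40 for 35 genes were above the floor on at least 3 of 6 arrays and were tested. The remaining 6, for Cyp1b1 (both its dimmer probe sets), Cyp2c65, Cyp2d12, Cyp2j13 and Cyp3a16, were above the floor on at most 1 array. The test over the 3 weeks was limma with a block for week and adjustment by Benjamini-Hochberg over 14533 probe sets, and 0 of 40 members had an adjusted p under 0.05 in either direction. That share was 0% for lower and 0.0138% for higher probe sets among all tested, the 2 called being those of Krt23 and Dbp. At an unadjusted p under 0.05, 4 of 40 members were lower, against 2.33% of all probe sets, and 0 were higher, against 1.70%. The 4 were the 3 probe sets of Cyp2b10 and that of Cyp2c54. The error of the test starts from the spread of the diet difference between weeks, so a difference seen at 1 or 2 weeks counts as spread. It is then moderated, meaning that limma draws it toward the typical spread over all 14533 probe sets. Every standard error (±) given below is of this moderated kind.

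Cyp2b10, the CAR-responsive member of subfamily 2b that oxidises barbiturates and many other drugs, had lower high-fat than control values every week on all 3 of its probe sets. On probe set 1451787_at the control against high-fat signals were 7456 against 2237 (week 2), 3023 against 2784 (week 4) and 6008 against 3278 (week 10). The diets were thus far apart at weeks 2 and 10 and close together at week 4. These values are 3.33-fold, 1.09-fold and 1.83-fold lower. Probe set 1425645_s_at read 11486 against 3484 (week 2), 3653 against 3329 (week 4) and 8988 against 5203 (week 10), in the same order. Probe set 1422257_s_at read 8561 against 3284 (week 2), 3156 against 2523 (week 4) and 7875 against 4733 (week 10). The 3 probe sets share a target gene and are not replicates. Their mean log2 differences were -0.91 ± 0.30, -0.88 ± 0.30 and -0.81 ± 0.25 (moderated standard error, 3 weeks), each with a limma adjusted p of 0.993. After a loess correction of the differences for brightness the week 2 values stayed at -1.75, -1.72 and -1.39 on the log2 scale.

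The other genes of subfamily 2b differed from each other in direction at weeks 2 and 10. Cyp2b9, a steroid hydroxylase that is female-predominant in mouse liver, read 6121 against 7164 (week 2), 10878 against 6922 (week 4) and 7267 against 12706 (week 10). It was therefore 1.57-fold lower with high-fat feeding at week 4 and 1.75-fold higher at week 10. Cyp2b13, also female-predominant, had log2 differences of 0.57, -0.67 and -0.39, and Cyp2b19, an epidermal member near the floor, had -0.55 at week 2 and 0.44 at week 10, with both week 4 arrays under the floor. Differences between Cyp2b10 and these neighbours were not tested.

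**Figure D1:**
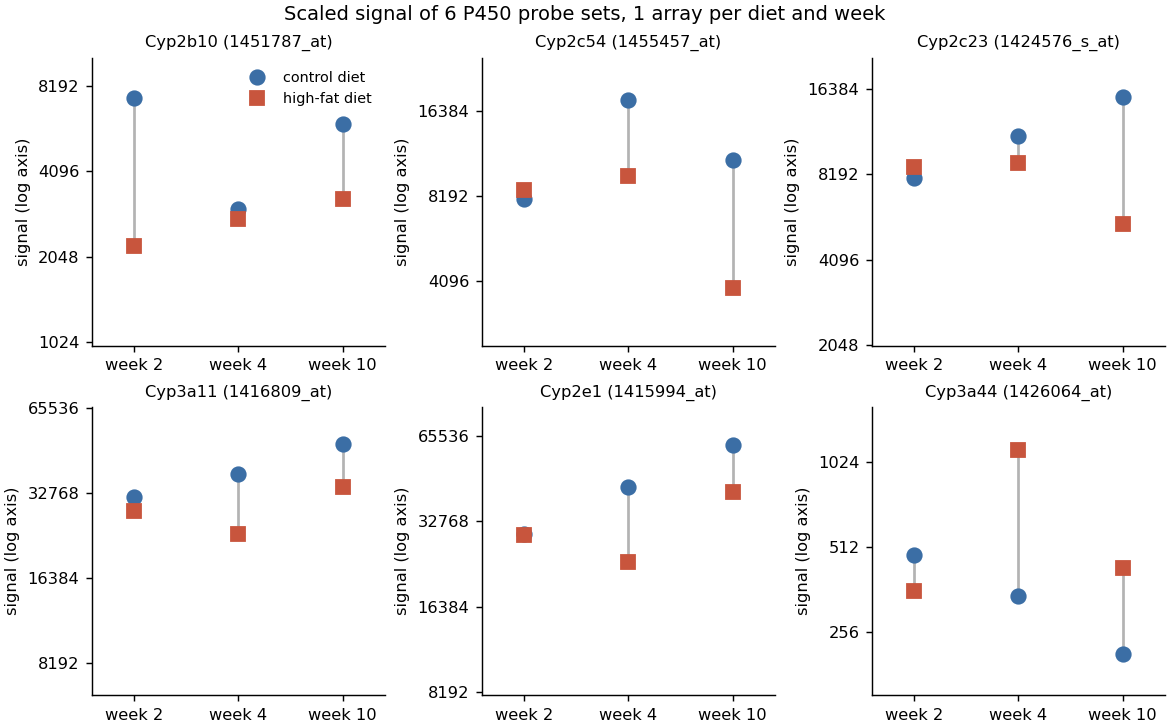
Scaled signal (log axis) of 6 P450 probe sets by week, with 1 circle for the control and 1 square for the high-fat array of each week, joined by a grey line. Cyp2b10 lies lower on the high-fat array by 3.33-fold at week 2, Cyp2c54 and Cyp2c23 by 2.83-fold and 2.81-fold at week 10, and Cyp3a44 lies higher by 3.30-fold at week 4; week 4 levels come from another array design.

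In subfamily 2c, which metabolises drugs and arachidonic acid, 9 of 10 tested probe sets had a negative mean difference, with a range of -0.77 to 0.05 on the log2 scale. The mean was negative for 7999 of all 14533 probe sets, and for 1121 of the 1454 in the brightest 10%. Cyp2c54 read 8002 against 8601 (week 2), 17967 against 9644 (week 4) and 10999 against 3881 (week 10). It was similar between the diets at week 2 and then 1.86-fold and 2.83-fold lower, giving a mean log2 difference of -0.77 ± 0.30 (limma adjusted p = 0.993). Cyp2c23, an arachidonate epoxygenase, read 7934 against 8697 (week 2), 11220 against 8954 (week 4) and 15423 against 5494 (week 10), and stood 2.81-fold lower at week 10. Its probe set carries the suffix for probes shared between transcripts. Cyp2c50 read 17039 against 16400 (week 2), 29303 against 17864 (week 4) and 31867 against 19000 (week 10), with a 1.04-fold difference at week 2 and 1.64-fold and 1.68-fold lower values later. Cyp2c68 had log2 differences of -0.41, -0.79 and -0.10, Cyp2c37 -0.05, -0.56 and -0.27, and Cyp2c29 -0.31, -0.36 and -0.25. Cyp2c70, linked to bile acid hydroxylation in mice, was 1.27-fold and 1.33-fold lower at weeks 2 and 4 and 1.48-fold higher at week 10. Its mean turned from -0.06 to 0.18 after loess on brightness. The dim Cyp2c55 read 249 against 41.1 (week 2), 255 against 371 (week 4) and 502 against 618 (week 10), its week 2 high-fat value being under the floor. Cyp2c38 and Cyp2c39 had log2 differences of -0.52 to 0.07.

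Subfamily 3a, whose Cyp3a11 is the abundant PXR-responsive steroid and drug hydroxylase of mouse liver, held members on both sides. Cyp3a11 read 31582 against 28271 (week 2), 38158 against 23390 (week 4) and 48832 against 34497 (week 10), lower each time by 1.12-fold, 1.63-fold and 1.42-fold. Its mean log2 difference of -0.46 ± 0.22 (limma adjusted p = 0.993) became -0.12 after loess on brightness and -0.01 under quantile normalization. Cyp3a25 had log2 differences of -0.23, -0.73 and -0.21, and Cyp3a13 -0.18, -0.33 and -0.69. Cyp3a44, a female-predominant neighbour, went the other way at the later weeks, with 480 against 358 (week 2), 343 against 1131 (week 4) and 215 against 432 (week 10). This is 1.34-fold lower at week 2 and then 3.30-fold and 2.01-fold higher, with a mean log2 difference of 0.77 ± 0.36 (limma adjusted p = 0.993). Cyp3a16, a fetal and female-predominant paralogue that was not tested, was above the floor on the high-fat array of week 4 alone, where it read 350 against 34 on the control, at least 2.26-fold. As paralogues, Cyp3a16 and Cyp3a44 may share probe signal. The 5 tested genes listed as female-predominant were Cyp2b9, Cyp2b10, Cyp2b13, Cyp2c39 and Cyp3a44. Their median log2 differences were -0.07, -0.52 and 0.04 at weeks 2, 4 and 10, with 3 negative and 2 positive means.

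Among single-gene subfamilies, Cyp2e1, which oxidises ethanol and is induced by ketones, read 29548 against 29237 (week 2), 43231 against 23596 (week 4) and 60890 against 41560 (week 10). The diets were level at week 2, and the high-fat array was 1.83-fold and 1.47-fold lower after that. Cyp2f2, a naphthalene-oxidising enzyme of periportal hepatocytes, read 21560 against 16575 (week 2), 27128 against 16699 (week 4) and 24122 against 20993 (week 10), and was lower at all 3 weeks. Their mean log2 differences of -0.48 ± 0.24 and -0.43 ± 0.22 (limma adjusted p = 0.993 for both) became -0.13 and -0.15 after loess on brightness. Cyp2a12, a steroid hydroxylase, had -0.01, -0.47 and -0.13, a mean that turned from -0.21 to 0.04 with loess. Cyp2s1 had 0.10 at week 2 and -0.60 at week 10, and was under the floor on both arrays of week 4. Cyp2g1, known from olfactory tissue, had at least 0.17, then -0.42 and 0.31.

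At week 2 subfamily 2d had higher high-fat values for 7 of 8 tested probe sets (median log2 difference 0.31) and lower at week 10 for 6 of 8 (median -0.15). Among all 14533 probe sets, 6544 were higher at week 2 and 6952 lower at week 10. Cyp2d10 read 12035 against 15044 (week 2), 23297 against 15334 (week 4) and 17283 against 9529 (week 10), crossing from a log2 difference of 0.32 at week 2 to 1.81-fold lower at week 10. Cyp2d26 had log2 differences of 0.34, -0.69 and -0.18. Both probe sets of Cyp2d22 were higher at week 2 (0.29 and 0.52) and lower at week 4 (-0.53 and -0.52). Cyp2d9, the male-predominant testosterone 16-alpha-hydroxylase, had 0.29, 0.51 and -0.45. Both probe sets of Cyp2d13 stayed within -0.06 and 0.45, and Cyp2d34 had 0.06 at week 2 and -0.10 at week 10, with both week 4 arrays under the floor.

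Subfamily 2j makes epoxides of arachidonic acid. Cyp2j6 read 162 against 384 (week 2), 496 against 427 (week 4) and 253 against 305 (week 10), which is 2.37-fold higher with high-fat feeding at week 2 and within 1.21-fold at the later weeks. Its control value at week 2 lay just above the floor. The probe sets of Cyp2j5 disagreed at weeks 2 and 10, with log2 differences of -0.13, -0.36 and 0.23 on 1417531_at and 0.31, -0.26 and -0.80 on 1417532_at. Cyp2j9, at the floor on 2 arrays, had at least 0.50 at weeks 2 and 4 and -0.49 at week 10.

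Family 1 holds the best known targets of the aryl hydrocarbon receptor, and its members differed in direction and level. Cyp1a2, which clears caffeine, read 9058 against 10338 (week 2), 14254 against 10875 (week 4) and 9785 against 10086 (week 10), with a mean log2 difference of -0.05 ± 0.23. Cyp1a1, its inducible relative, read 286 against 466 (week 2), was under the floor on both arrays of week 4, and read 86.2 against 203 (week 10). That is 1.63-fold higher with high-fat feeding at week 2 and at least 1.31-fold at week 10. Its mean log2 difference of 0.36 became 1.05 with the floor at the 20th percentile and 0.012 with no centring. The brightest probe set of Cyp1b1, a largely extrahepatic enzyme, had -0.08 at week 2 and -0.33 at week 10, and was under the floor on both arrays of week 4.

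**Figure D2:**
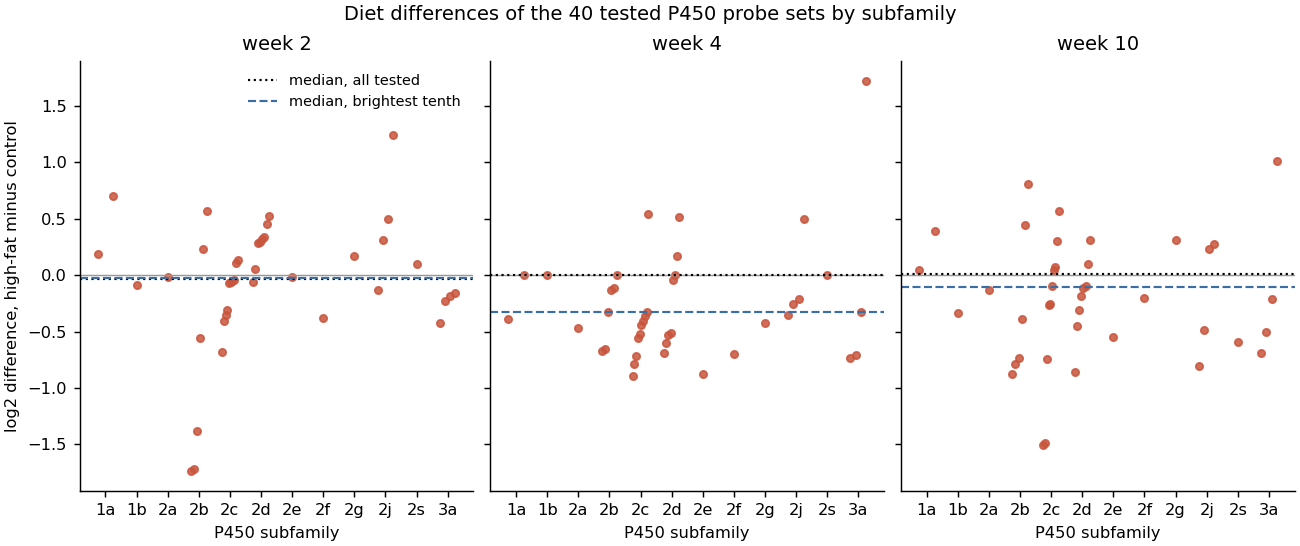
Log2 difference (high-fat minus control) of the 40 tested P450 probe sets by subfamily, 1 panel for each week and 1 point for each probe set, with lines at the median of all tested probe sets (dotted) and of the brightest 10% (dashed). Subfamily 2b reaches -1.74 at week 2 through Cyp2b10, Cyp3a44 stands at 1.72 at week 4, and the bulk of points at week 4 lies below 0.

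With median centring, counts of members at least 1.5-fold lower were smallest at week 2 and largest at week 4. That order did not hold with loess on brightness (4, 0 and 9 at weeks 2, 4 and 10, against 8.64%, 5.08% and 14.0% of all probe sets). With no centring the counts were 23, 9 and 9, and the shares over all probe sets are not given. There the week 2 control array kept its higher scale (trimmed mean 800.3), which lowers the week 2 differences of probe sets in general. At week 2 with median centring, 4 of 40 members were lower by at least 1.5-fold with high-fat feeding (10.2% of all 14533 probe sets) and 2 were at least 1.5-fold higher (7.38% of all). The 4 were Cyp2b10 on its 3 probe sets and Cyp2c55, and the 2 were Cyp2j6 and Cyp1a1. The share lower is close to the background. At week 4, 11 were lower (7.27% of all), namely Cyp2b9, Cyp2b13, Cyp2c50, Cyp2c54, Cyp2c68, Cyp2d10, Cyp2d26, Cyp2e1, Cyp2f2, Cyp3a11 and Cyp3a25, and 1, Cyp3a44, was higher (4.46% of all). At week 10, 10 were lower (13.6% of all), namely the 3 of Cyp2b10, Cyp2c23, Cyp2c50, Cyp2c54, Cyp2d10, 1 of Cyp2j5, Cyp2s1 and Cyp3a13, and 2, Cyp2b9 and Cyp3a44, were higher (14.0% of all). Median log2 differences over the 40 members were -0.03, -0.38 and -0.21 at the 3 weeks, beside -0.04, 0.00 and 0.01 over all tested probe sets.

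Those P450 medians move with brightness. Of the 40 members, 24 belonged to the brightest 10% of all tested probe sets, and over that 10% as a whole the median difference was -0.02, -0.33 and -0.10 at weeks 2, 4 and 10. The 24 bright members had medians of -0.06, -0.55 and -0.29, and the other 16 had 0.14, 0.00 and 0.07. Read against the brightest 10%, 11 of 24 were at least 1.5-fold lower at week 4 where 19.9% of the 10% were, 8 of 24 at week 10 where 14.6% were, and 3 of 24 at week 2, all Cyp2b10, where 3.78% were. After loess on brightness the week 4 median of the members was -0.06 and after quantile normalization -0.09, and under both none of the 40 was at least 1.5-fold lower at week 4, where 5.08% and 4.23% of all probe sets were. At week 10 the count was 9 under both, where 14.0% and 15.6% of all were, with Cyp2c54 at -1.43 and -1.38 and Cyp2c23 at -1.38 and -1.25. Cyp3a44 at week 4 remained at 1.73 and 1.43.

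**Figure D3:**
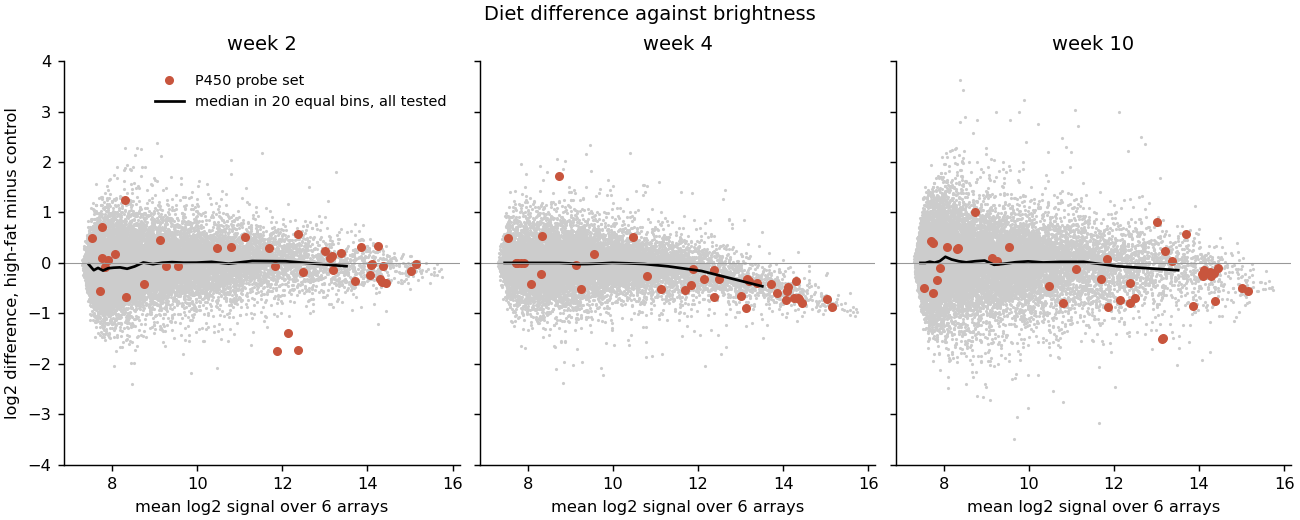
Log2 difference against mean log2 signal over the 6 arrays for all 14533 tested probe sets (grey) and the 40 P450 probe sets (red), with the median in 20 equal bins of brightness (black line), 1 panel for each week. At week 4 the black line falls to -0.46 in the brightest bin and the 24 bright P450 probe sets have a median of -0.55, while Cyp2b10 at week 2 reaches -1.74.

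**Figure D4:**
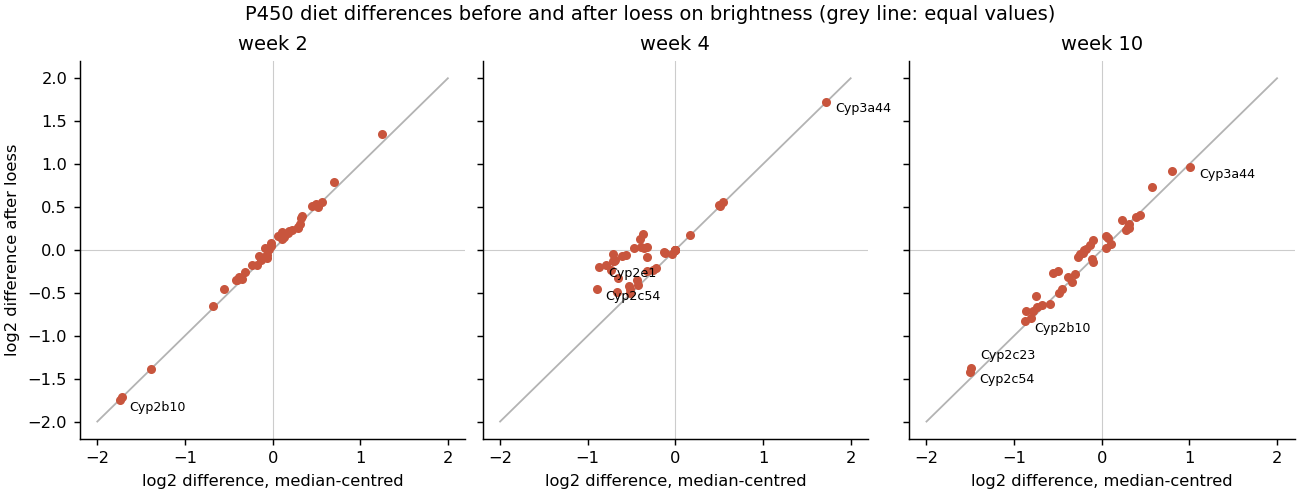
Log2 difference of each tested P450 probe set (1 point each) with median centring (horizontal axis) and after loess on brightness (vertical axis), 1 panel for each week, with a grey line of equal values. The median of the points moves from -0.38 to -0.06 at week 4, whereas Cyp2b10 at week 2 goes from -1.74 to -1.75 and Cyp3a44 at week 4 from 1.72 to 1.73.

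Direction was then followed over the 3 weeks. In all, 13 of 40 members had negative differences at all 3 weeks, whatever the size, against 11.7% of all probe sets and 26.6% of the brightest 10%, all 13 lying in that 10%. They were Cyp2a12, the 3 of Cyp2b10, Cyp2c29, Cyp2c37, Cyp2c50, Cyp2c68, Cyp2e1, Cyp2f2, Cyp3a11, Cyp3a13 and Cyp3a25. After loess on brightness 7 were (9.69% of all). No member was higher at all 3 weeks, against 8.24% of all probe sets. After loess 2 were, Cyp1a2 (0.22, 0.03 and 0.16) and Cyp2a12 (0.04, 0.02 and 0.06), and both were under quantile normalization too, with Cyp1a1. Several of these differences are very small. The shares of all probe sets higher at all 3 weeks under these 2 settings are not given, so the counts are not a result about P450 genes.

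Hepatocyte markers and other cell types were set beside these values. The 8 tested hepatocyte markers had median log2 differences of -0.21, -0.87 and -0.49 at weeks 2, 4 and 10. All 8 were at least 1.5-fold lower at week 4, as were 19.9% of the brightest 10% of all tested probe sets. The summed signal of the hepatocyte markers, control against high-fat, was 298457 against 257403 (week 2), 334428 against 183326 (week 4) and 474195 against 349305 (week 10). Macrophage and Kupffer cell markers, 11 of 12 tested, had medians of -0.15, 0.03 and 0.75. Of them 8 were at least 1.5-fold higher at week 10, as were 14.0% of all tested probe sets. Their summed signal was 21331 against 19105 (week 2), 29607 against 30202 (week 4) and 14031 against 24014 (week 10). Endothelial markers (5 of 5) had -0.49, -0.24 and 0.44, and stellate cell markers (6 of 6) -0.09, 0.09 and 0.32. None of 5 cholangiocyte markers was tested, with Krt7 and Epcam at the floor on all arrays, and the adipocyte marker Adipoq was at the floor on all arrays. The hepatocyte markers are bright, and their values were not corrected for brightness. Over all probe sets in the brightest of 20 equal bins, the medians were -0.07, -0.46 and -0.15 at weeks 2, 4 and 10. In whole liver, fewer hepatocytes and less P450 RNA per hepatocyte cannot be told apart. The part of cell makeup and of RNA integrity in the P450 differences was not tested.

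**Figure D5:**
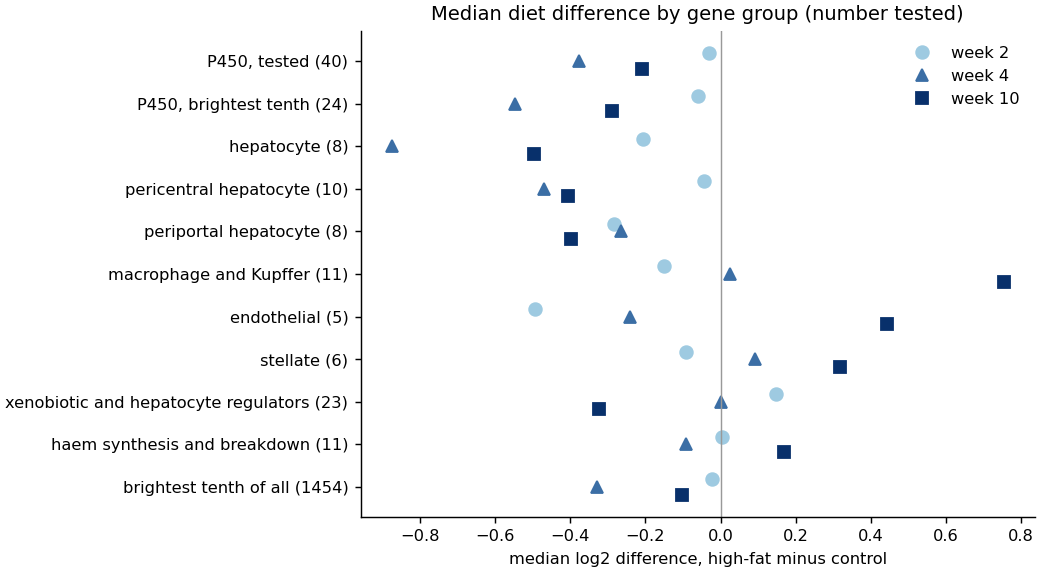
Median log2 difference (high-fat minus control) at weeks 2, 4 and 10 for the P450 members, for lists of cell type markers and regulators and for the brightest 10% of all tested probe sets, with the number tested in brackets and 1 symbol for each week. The hepatocyte list lies at -0.87 at week 4, to the left of the P450 median of -0.38, and the macrophage list lies at 0.75 at week 10.

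The receptors and partners of the enzymes were also compared. None of 23 tested xenobiotic and hepatocyte regulators passed the test, 17 having a negative and 6 a positive mean difference. Among all 14533 probe sets the mean was negative for 7999. The CAR gene Nr1i3 had log2 differences of 0.40, -0.69 and 0.17, against the -1.74, -0.12 and -0.87 of Cyp2b10. The PXR gene Nr1i2 had 0.17, -0.48 and -0.23, and Ahr had -0.39, -0.25 and -0.41. The largest means in this list were those of the repressor Bcl6 (-0.47 ± 0.25) and of the hepatocyte factor Cebpa (0.45 ± 0.22), both with a limma adjusted p of 0.993. Of 8 tested electron donors and membrane partners none passed, and the largest means were -0.44 for epoxide hydrolase Ephx1 and -0.36 for the haem-binding protein Pgrmc1. The reductase gene Por was not analysed here. Among 11 genes of haem synthesis and breakdown none passed, with Alas1, the first enzyme of haem synthesis, at 0.02, 0.76 and -0.58, the bilirubin pathway enzyme Blvrb at a mean of -0.25 and Alad at 0.20.

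PAR bZIP factors, which are under clock control, activate several P450 genes and their receptors in liver, and they were listed with other clock genes. That mixed list held the largest mean differences of the 4 related gene lists, with 4 of 9 tested genes at a negative and 5 at a positive mean. Dbp, a PAR bZIP factor, was higher on the high-fat diet on the brighter of its 2 probe sets. It was the 1 gene of the list that passed, on that probe set (limma adjusted p = 0.0256), and its other probe set was not among those called. The brighter probe set read 22.4 against 740 (week 2), 262 against 1096 (week 4) and 33.6 against 928 (week 10), with the control under the floor at weeks 2 and 10. Its mean log2 difference is therefore at least 2.30, and its standard error of 0.22 rests in part on floored values. The other PAR bZIP factors Tef and Hlf had means of 0.70 and -0.09. The clock genes Nr1d1 (1.69, 0.00 and 2.27) and Arntl (-1.30, -0.71 and -1.94) lay on opposite sides, and the repressor Nfil3 had a mean of -1.04, all with a limma adjusted p of 0.993. No searched P450 promoter window held an exact match to the D-box, the motif that Dbp binds. Such matches are rare (1.1% of all genes), and looser or more distant sites were not searched. The search of 32 members therefore cannot tell whether Dbp acts on these genes. Whether time of day bears on the P450 differences was not tested.

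Between weeks 2 and 10, which share an array design, P450 levels were compared within each diet. On the control diet 13 of 40 members were at least 1.5-fold higher at week 10 (12.2% of all probe sets, and 13.3% of the brightest 10%, where 9 of 24 members were) and 2 were lower (10.4% of all). The higher ones included Cyp2c38 (log2 difference 1.08), Cyp2e1 (1.04), Cyp2b13 (0.96), Cyp2c23 (0.96) and Cyp2c50 (0.90), and the lower ones were Cyp3a44 (-1.16) and Cyp1a1 (at least 0.88 in size). On the high-fat diet 7 were higher (20.3% of all), among them Cyp2c70 (1.60) and Cyp2c38 (1.21), and 7 were lower (14.6% of all, and 14.9% of the brightest 10%, where 4 of 24 were), among them Cyp2c54 (-1.15), Cyp3a13 (-0.91) and Cyp2c23 (-0.66). Cyp2c23 thus had values of 7934 and 15423 on the control arrays and of 8697 and 5494 on the high-fat arrays of weeks 2 and 10. These comparisons rest on 1 array each and reuse the arrays of the diet comparisons, and the control array of week 10 is the one with the high bioD signal.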

How the data were processed

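Liver RNA of 6 arrays was measured. The authors deposited intensities on a linear scale, 1 for each probe set, made with software not given in the sources used here. Judged by these values, arrays had been scaled to a trimmed mean of 500.0 to 500.2, except the control array of week 2, at 800.3. Intensities were put on the log2 scale, centred on each array's median over shared probe sets that exceed the floor throughout, and floored at the 40th percentile (155.3). After 64 control probe sets were left out, 14533 of 22626 shared probe sets above the floor on at least 3 arrays were fitted with limma 3.58.1 in R 4.3.3 (lmFit, eBayes, week as a block, Benjamini-Hochberg over all 14533). Single weeks were not tested, and precision is limited by the 6 arrays. P-values measure only the spread between these samples.

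The 2 P450 probe sets annotated to several genes were not used. Named members are those past the threshold, up to 10 per direction with 1 sign at all 3 weeks, the 3 largest per direction and week, the brightest of each subfamily, and other probe sets of these genes. Further members were named to account for all. In the lists of related genes, cell type markers and P450 groups, each gene was represented by its brightest probe set alone. Members and lists were chosen with earlier results of these data known, and the brightest 10% as a background after the values were seen. Alternatives were no centring, quantile normalization, other floors, no filter, loess on brightness, 1 probe set per gene, no shared-suffix probe sets, leaving out each week, no week block, eBayes with trend and robust, and a 2-fold threshold. On simulated data for the comparison over 3 weeks with 14533 probe sets, limma recovered 7.46% of 67 probe sets changed by 1, 59.7% of 67 changed by 2 and 92.4% of 66 changed by 4 on the log2 scale. Figures were drawn with matplotlib 3.10.9.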

Additional observations from a re-analysis of the deposited data

Results flagged for a closer look

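Cyp2b9 was more than 1.5-fold apart between the diets in opposite directions at different weeks. Its log2 difference was -0.65 at week 4 and 0.81 at week 10, each from 1 array per diet, and the difference between the weeks was not tested. After loess on brightness these values were -0.33 and 0.92.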

How the results depend on the processing

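No P450 member passed in any of the 13 other fits, the smallest limma adjusted p over them being 0.179, without week 2. With no centring, which leaves the week 2 control array at its higher scale, the median of mean differences was -0.37 and that of week 2 -0.70, with 23 members at least 1.5-fold lower and 0 higher at week 2 and 4 higher at week 4. The higher scale lowers the week 2 differences of probe sets in general, not of P450 genes alone. The week 4 median was -0.089 under quantile normalization and -0.055 after loess, with 0 members lower under both. At a 2-fold threshold 0 members were lower at week 4 and 2 at week 10, and 1 was higher at week 2 and 1 at week 10. With the 20th percentile floor 5, 2 and 4 members were higher at weeks 2, 4 and 10, with the 60th percentile floor 0 and 1 at weeks 2 and 10, and with no filter 2 at week 4. With 1 probe set per gene 2 members were lower at week 2, and without shared-suffix probe sets 2 were lower and 1 higher. Apart from loess and quantile normalization, shares over all probe sets are not given for these alternatives. Their counts are therefore not a result about P450 genes in particular.

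Of 350 values of 28 named probe sets under these alternatives, 320 kept their direction and 30 turned, all of means between -0.25 and 0.43. With no centring these were Cyp2c55 (-0.0096), Cyp2d9 (-0.073), Cyp2b9 (-0.062) and Cyp2g1 (-0.020). Under quantile normalization and loess they were Cyp2c70 (0.15 and 0.18), Cyp1a2 (0.12 and 0.14), Cyp2a12 (0.046 and 0.042), Cyp2d26 (0.10 and 0.099) and Cyp2j5 on 1417531_at (0.033 and 0.085). Cyp2c55 turned at the 20th (-0.50) and Cyp2j6 at the 60th percentile floor (-0.025). Leaving out each week in turn, the ranges of those that turned were Cyp2b13 (-0.53 to 0.089), Cyp2c55 (-0.19 to 0.42), Cyp2d9 (-0.084 to 0.40), Cyp2b9 (-0.21 to 0.52), Cyp2c70 (-0.38 to 0.11), Cyp1a2 (-0.17 to 0.12), Cyp2d26 (-0.43 to 0.080), Cyp2g1 (-0.13 to 0.24), Cyp2j5 1417531_at (-0.24 to 0.048), Cyp2s1 (-0.30 to 0.051) and Cyp2j5 1417532_at (-0.53 to 0.030). The cause was not tested.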

Other observations

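The larger array design of week 4 holds 6 further probe sets of these families that the smaller design lacks. Cyp2r1, the vitamin D 25-hydroxylase, read 428 with control and 528 with high-fat feeding, 1.23-fold higher. A second probe set of Cyp2j6 read 393 and 378, and Cyp2d40 read 159 and 113, the latter under the floor. Cyp2j11 and both probe sets of Cyp2u1 were under the floor on both arrays.

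Genes that mark the zones of the liver lobule were measured beside the zoned P450 genes. The 10 pericentral markers had median log2 differences of -0.04, -0.47 and -0.41 at weeks 2, 4 and 10, and the 8 tested periportal markers -0.28, -0.26 and -0.40, with no gene of either list passing the test. Glul, glutamine synthetase of the pericentral hepatocytes, had 0.91, -0.09 and -1.34, and Oat had 0.45, -0.78 and -1.24. Other pericentral markers were higher at week 10, namely Lect2 (-0.64, -0.39 and 0.45), Gulo (0.08, -0.36 and 0.16) and Aldh1a1 (-0.18, -0.58 and 0.13). Arg1, arginase of the periportal zone, had -0.35, -0.86 and -1.08. The 2 tested periportal markers with a positive mean were Cdh1 (0.61, 0.55 and -0.68) and Pigr (0.23, -0.31 and 0.13). The 4 measured P450 genes of pericentral hepatocytes (Cyp2e1, Cyp1a2, Cyp2c29 and Cyp3a11) had medians of -0.09, -0.55 and -0.38, and periportal Cyp2f2 had -0.38, -0.70 and -0.20. All of these P450 genes lie in the brightest 10%, whose week 4 median was -0.33. After loess on brightness their week 4 values were -0.19, 0.03, 0.19 and -0.05, and -0.13 for Cyp2f2. The zone markers were not corrected for brightness.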
